A study of Rattus norvegicus and Heterocephalus glaber with 6 samples.

Results

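Vanins and the enzymes of coenzyme A synthesis were followed in liver RNA of naked mole rats (Heterocephalus glaber, NMR in the labels) and rats (Rattus norvegicus). Members were the rows of the deposited gene tables whose identifier equalled 1 of 9 listed symbols, ignoring case. All 9 (Vnn1, Vnn3, Pank1, Pank2, Pank3, Pank4, Ppcs, Ppcdc and Coasy) had 1 row among the 22549 rows of each rat table. The vanins alone, VNN1 and VNN3, had a row among the 734 rows of each NMR table, and the other 7 members were not analysed here in that species. The list was drawn up with earlier results of the NMR against rat contrast known, so the vanin levels in that contrast are given as a description, with no test.

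The libraries came from polyadenylated RNA of frozen liver, with 3 NMR and 3 rat libraries. All 6 come from animals held at 8% oxygen for 8 hours, so this exposure is common to both species. No normoxia library was used here, and no effect of oxygen can be read from these values. Strain, age and sex are not in the labels, and nothing in them says that each library is a different animal.

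Vanins are pantetheinases, enzymes that cut pantetheine, a breakdown product of coenzyme A, into pantothenate (a B vitamin) and cysteamine. Pantothenate is the starting point of coenzyme A synthesis: pantothenate kinases (Pank genes) phosphorylate it, Ppcs joins cysteine to the product, Ppcdc removes a carboxyl group, and Coasy carries out the final steps. The liver uses coenzyme A to activate fatty acids, and in mouse liver Vnn1 is a known target of PPAR alpha, the nuclear receptor of fasting and fatty acid use.

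The rat rows at 1 FPKM or more numbered 9866 to 10036 per library, and the NMR rows 304 to 319. FPKM, a fragment value scaled by transcript length and library size, carries no read count, so absolute depth is unknown. No counting interval was computed beyond the confidence bounds deposited with each value. Ratios of rat values under 0.1 FPKM pile up at common steps, which put rat 1 at 1.05 times the depth of rat 2 and 0.98 times that of rat 3. Of the hepatocyte markers chosen to check the tissue label, 9 of 10 had a rat row and all 9 averaged at least 100 FPKM, albumin from rat 3 alone because the other libraries gave no estimate. None of these markers was analysed here in NMR (0 of 10).

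Paired by symbol, the vanins differed in opposite directions between the species. Whether rows of the same symbol are the same gene in both species was not tested. VNN3 had 158.7, 142.0 and 172.9 FPKM in NMR 1, 2 and 3, against 14.2, 20.5 and 17.9 FPKM in rat 1, 2 and 3. Every NMR value lay far above every rat value. VNN1 had 1.68, 2.34 and 2.03 FPKM in the NMR libraries, against 4.95, 7.04 and 8.38 FPKM in the rat libraries. Here the NMR values were the lower ones, and the groups again did not overlap. On scaled values, the same held for 90.0% of the shared symbols tested.

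To set the species side by side, each library was divided by its median ratio over 215 shared symbols. The scaled level of VNN3 averaged 181.0 ± 8.07 in NMR and 15.1 ± 1.80 in rat (SD, n = 3 each), a log2 difference of 3.50 on the log2(scaled FPKM + 1) scale. The scaled level of VNN1 averaged 2.33 ± 0.485 in NMR and 5.88 ± 1.39 in rat (SD, n = 3 each), a log2 difference of -1.04. The pseudocount understates the difference of a gene as low as VNN1. The ratio of its mean scaled levels, NMR over rat, was 0.396, while that of VNN3 was 11.9.

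Such differences were the rule in these tables. Of 289 shared symbols tested with limma, 73.7% passed a Benjamini-Hochberg adjusted p under 0.05 with a log2 difference of at least 1. This share is background only, and nothing is read from it for the vanins, since the contrast was known when they were chosen. In all, 36.0% were called higher in NMR and 37.7% higher in rat, and 90.0% had no overlap between the scaled values of the species. These shares include 31 symbols listed at 0 in the 3 NMR libraries and 20 listed at 0 in the 3 rat libraries, which entered only through the other species, and a value of 0 in such tables can be a failed estimate. The median log2 difference over all 289 was -0.20. VNN3 held place 22 from the side of NMR, and VNN1 place 109 from the side of rat. The log2 difference of VNN1 was -0.94 without NMR 1 and -0.89 without rat 3, -0.77 with quantile normalization and -0.54 with libraries scaled to equal sums. That last scaling gave VNN3 a log2 difference of 4.37, or 20.7-fold against 11.3-fold with the main scaling, both on the log2(scaled FPKM + 1) scale. In this design a difference between the species cannot be separated from differences in genome, gene models or alignment.

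**Figure D1:**
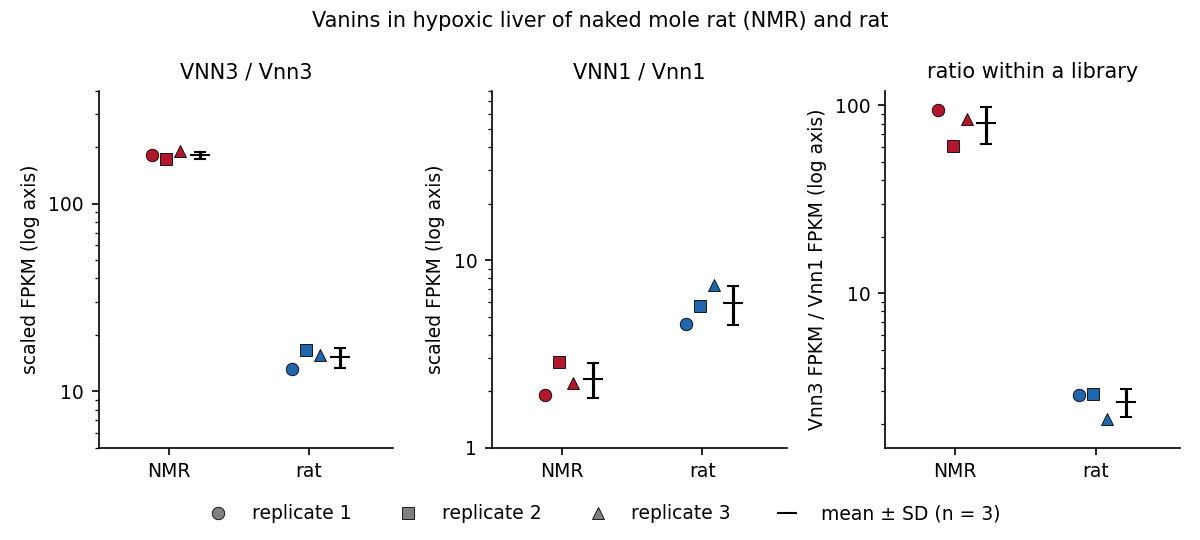
Scaled FPKM of VNN3 and of VNN1, and the ratio of their FPKM values within each library (log axes), with 1 point per library and the mean ± SD at its side. NMR points lie above rat points for VNN3 (181.0 against 15.1 on average) and for the ratio, and below them for VNN1 (2.33 against 5.88).

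The balance between the vanins needs no scaling between libraries, because both values come from the same library. It still depends on the gene model and the read assignment of each row. VNN3 stood at 94.6, 60.6 and 85.0 times the FPKM of VNN1 in NMR 1, 2 and 3, against 2.87, 2.91 and 2.13 times in rat 1, 2 and 3. VNN3 was the higher vanin in all 6 libraries, and the ratios of the species did not overlap. The ratio combines the same vanin levels as above, so it is a description too. No such ratio was computed for other pairs of shared symbols. In log2 units the ratio averaged 6.30 ± 0.336 in NMR and 1.38 ± 0.253 in rat (SD, n = 3 each), so it was 30.1 times larger in NMR. VNN3 made up 98.7% ± 0.305 of the summed vanin FPKM in NMR and 72.2% ± 3.59 in rat (SD, n = 3 each). In bulk RNA, fewer cells of a type and less RNA per cell cannot be told apart, so the ratio does not say whether the same cells carry both transcripts.

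The row extents differ less for the vanins than for most shared symbols. In NMR, VNN3 lies on scaffold158154 from 17838 to 29436 and VNN1 on scaffold45814 from 6164 to 23189, in the coordinates of the deposited tables. In rat, Vnn3 lies on chromosome 1 from 22121743 to 22134006 and Vnn1 on the same chromosome from 22087289 to 22097592. The build behind either set of coordinates is not given in the sources used here. The VNN3 row spans 11598 bp in NMR and 12263 bp in rat, a ratio of 0.946. The VNN1 row spans 17025 bp in NMR and 10303 bp in rat, a ratio of 1.65.

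Both ratios fall within the range of 0.5 to 2 taken as comparable, which 47 of the 289 tested symbols share. With those 47 fitted alone, the background share called in either direction was 63.8%. Among them VNN3 held place 4 from the side of NMR and VNN1 place 12 from the side of rat, and their median log2 difference was 0.50. The span is the extent of the row on the sequence, not the transcript length that enters FPKM, and it does not vouch for the gene model. GPX1, with comparable spans, was listed at 0 in rat against a scaled mean of 395.1 in NMR. RPL12, also in this class, was listed at 0 in NMR against 15.7 in rat.

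In rat the vanins are neighbours, with 24151 bp between the rows and no other row in that gap. Taar1, a trace amine receptor on the other side of Vnn1, was listed at 0 in the 3 rats, and RGD1306962, beyond Vnn3, stood at 2.32 ± 0.0722 FPKM (SD, n = 3). In the NMR tables used here the VNN1 row is the only row on its scaffold, and VNN3 shares its scaffold with MEAF6, a subunit of histone acetyltransferase complexes. MEAF6 lies 10651 bp away and had 3.02, 2.30 and 5.12 FPKM in NMR 1, 2 and 3, far below VNN3. None of the 4 vanin rows overlapped another row (0 overlaps). Vanins are related in sequence, and reads that match more than 1 copy could be split between them, so the level of each is uncertain to that extent.

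The confidence bounds in the tables also limit these values. In each of the 3 NMR libraries the VNN3 value lay above its own upper bound, for example 158.7 FPKM against bounds of 136.3 to 148.3 in NMR 1. The bounds of VNN1 in the NMR libraries were wide for its level, at 0.787 to 2.44 in NMR 1 and 1.16 to 3.16 in NMR 2. In the rat tables both vanins lay within their bounds, which ran from 11.8 to 15.0 for Vnn3 and from 4.08 to 5.82 for Vnn1 in rat 1.

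**Figure D2:**
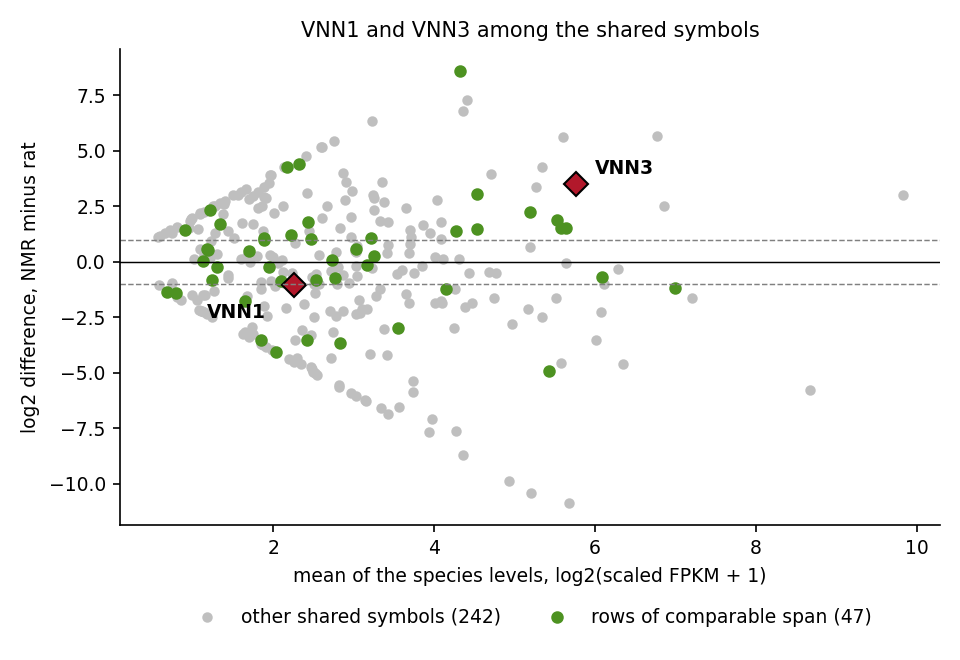
Log2 difference, NMR minus rat, of the 289 tested symbols against the mean of their levels in both species, with rows of comparable span in green and dashed lines at a difference of 1 in either direction. VNN3 lies at 3.50 among the higher levels, and VNN1 lies at -1.04, next to the dashed line.

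Among the shared symbols, a few had levels like those of the vanins over the 6 libraries, measured by the mean absolute difference of log2(scaled FPKM + 1). Nearest to VNN3 were UTP3 at 0.50, MIOX at 0.72 and GDA at 0.74. GDA, guanine deaminase, was the only one of these with rows of comparable span, and its scaled level averaged 78.6 ± 21.3 in NMR and 15.8 ± 2.24 in rat (SD, n = 3 each). Nearest to VNN1 were TAF5L at 0.20, TINF2 at 0.24 and DNAJC10 at 0.27, none of them with rows of comparable span. TINF2, a telomere protein, averaged a scaled level of 2.13 ± 0.460 in NMR and 5.10 ± 0.707 in rat (SD, n = 3 each).

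In rat, where all 9 members were measured, the pathway spanned a wide range of levels. Each averaged at least 1 FPKM and 4 of 9 at least 10, and their median was 7.26 FPKM. For comparison, 44.3% of all rat rows averaged at least 1 and 17.3% at least 10. From high to low the order of mean FPKM was Ppcs, Pank1, Coasy, Vnn3, Pank4, Vnn1, Pank3, Pank2 and Ppcdc. Of the 8 pairs of neighbours in this order, 6 had values that did not overlap between genes, and these 6 kept their order in each rat. Pank4 and Vnn1 overlapped, as did Vnn1 and Pank3. Without rat 1, Vnn1 came above Pank4. With 3 libraries an exact sign-flip test could not go below a two-sided p of 0.25, so no test of the order was made.

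Among the pantothenate kinases, which set the pace of the pathway, Pank1 led. Pank1 had 31.9, 46.3 and 28.3 FPKM in rat 1, 2 and 3, with rat 2 above the others. Its row lies on chromosome 1 from 238797911 to 238857586. Pank4 had 6.49, 7.92 and 7.36 FPKM. It is a relative of the kinases that, in mammals, lacks the catalytic residues and acts as a phosphatase. Pank3, a cytosolic kinase, had 5.88, 5.78 and 5.74 FPKM, almost the same level in every rat. Pank2, whose product is mitochondrial in humans, had 3.62, 4.42 and 3.59 FPKM.

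Pank1 accounted for 67.1% ± 4.51 of the summed FPKM of the 4 Pank genes (SD, n = 3), from 62.9% in rat 3 to 71.9% in rat 2. It stood at 6.12 ± 1.66 times the FPKM of Pank3 (SD, n = 3). Pank4 lies on chromosome 5 from 171767040 to 171783525, Pank3 on chromosome 10 from 20679353 to 20699173, and Pank2 on chromosome 3 from 118970526 to 119004728.

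The enzymes after the kinase step held both the highest and the lowest member. Ppcs, phosphopantothenoylcysteine synthetase, had 68.6, 47.2 and 46.7 FPKM in rat 1, 2 and 3, with rat 1 above the others. Its value lay above its own upper confidence bound in each of the 3 rats. Without rat 1 its mean was 47.0 FPKM, against 54.2 ± 12.5 with it (SD, n = 3). Ppcdc, the decarboxylase that follows, had 2.05, 1.88 and 1.68 FPKM, below every other member in each rat. Ppcs thus stood at 28.8 ± 4.28 times the FPKM of Ppcdc (SD, n = 3), from 25.1 in rat 2 to 33.5 in rat 1.

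Coasy, coenzyme A synthase, had 21.5, 25.8 and 25.4 FPKM in rat 1, 2 and 3, with rat 1 slightly below the others. Ppcs lies on chromosome 5 from 140008433 to 140012295, Ppcdc on chromosome 8 from 61153581 to 61177682, and Coasy on chromosome 10 from 90099615 to 90103476. None of the 9 rat rows overlapped another row (0 overlaps).

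**Figure D3:**
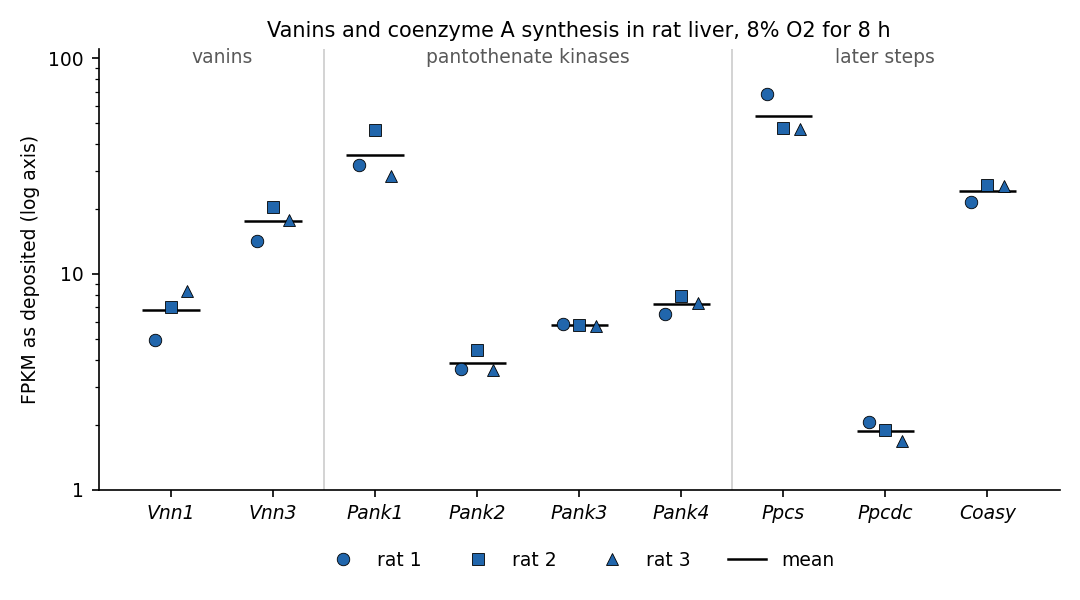
FPKM of the 9 members in each rat library (log axis), grouped by role, with a bar at the mean. Ppcs and Pank1 lie highest, Ppcdc lies lowest at 1.87 on average, and the values of Pank3 nearly coincide.

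The members differed in how much they varied among rats. On log2(FPKM + 1), the SD was 0.360 for Pank1, 0.334 for Vnn1, 0.310 for Ppcs and 0.251 for Vnn3, against a median of 0.137 over the 9994 rat rows at a mean of at least 1 FPKM. These values exceeded those of 92.2%, 90.7%, 88.8% and 82.1% of such rows. Coasy, Pank2, Pank4 and Ppcdc had SDs of 0.0929 to 0.140. The pseudocount lowers this SD for genes of low level. As a share of the mean FPKM, the SD was 9.80% for Coasy, 12.1% for Pank2, 9.95% for Pank4 and 9.84% for Ppcdc. Pank3, at an SD of 0.0153 on the log2 scale, varied less than all but 0.881% of rows. In NMR the SD was 0.161 for VNN1 and 0.141 for VNN3, against a median of 0.201 over 319 rows.

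Rat 2 was the highest library for 5 of 9 members (Vnn3, Pank1, Pank2, Pank4 and Coasy), but it was also the highest for 49.0% of the 9994 rows. Rat 1 was the highest for Ppcs, Pank3 and Ppcdc, against 17.5% of all rows, and rat 3 for Vnn1, against 33.5%. Both vanins were lowest in rat 1, as were many other rows. The order of Vnn1, with rat 3 above rat 2 above rat 1, was that of 19.5% of the 9994 rows. The order of Vnn3, with rat 2 above rat 3 above rat 1, was that of 29.0%. Of the 6 neutrophil markers, only 2 averaged at least 1 FPKM. The summed FPKM of all 6 was lowest in rat 1, at 2.51, 8.51 and 11.4 in rat 1, 2 and 3, with Elane listed at 0 in each. So was that of the 5 macrophage or Kupffer cell markers with a row, at 96.5, 108.7 and 136.3, with Marco listed at 0, and that of the 4 cholangiocyte markers, at 11.6, 12.8 and 16.6. Hbb, a globin of red cells, had 54.4, 357 and 348 FPKM. Other lists had another order. The 4 sinusoidal endothelial markers with a row were highest in rat 1, at 56.8, 51.5 and 49.1, and the 5 stellate markers lowest in rat 2, at 28.1, 19.5 and 29.6. The 4 T or NK cell markers summed to 1.81, 1.81 and 2.30. Sums of the hepatocyte markers are not compared, because albumin had an estimate in rat 3 alone. These markers had no common order. Ttr was lowest in rat 1, at 9869, 12914 and 10322 FPKM, and Serpina1 highest there, at 7905, 6045 and 6136. The part of these cells in the vanin levels was not tested.

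The RefSeq promoter table of the rat (build GRCr8, whose coordinates are not those of the deposited tables) held 6 of the 9 members, each with 300 bases from 250 before to 50 after the gene start. Their content of CpG pairs ran from 4 in Vnn3 and 8 in Pank1 to 22 in Ppcs, 23 in Coasy, 34 in Pank2 and 42 in Pank3. The median over 33469 promoters was 7, and 97.6% of them had fewer pairs than Pank3. The promoters with the fewest and the most pairs are shown, 5′ to 3′ on the strand of the gene, with CpG pairs in capitals. The first is chr1:23402809-23403108 on the minus strand and the second chr10:20732941-20733240 on the plus strand.
Vnn3: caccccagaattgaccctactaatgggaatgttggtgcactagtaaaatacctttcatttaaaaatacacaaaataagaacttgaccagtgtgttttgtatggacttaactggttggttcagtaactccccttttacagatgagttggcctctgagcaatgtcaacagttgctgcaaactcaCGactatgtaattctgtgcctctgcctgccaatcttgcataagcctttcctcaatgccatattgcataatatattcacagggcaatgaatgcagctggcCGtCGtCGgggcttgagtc
Pank3: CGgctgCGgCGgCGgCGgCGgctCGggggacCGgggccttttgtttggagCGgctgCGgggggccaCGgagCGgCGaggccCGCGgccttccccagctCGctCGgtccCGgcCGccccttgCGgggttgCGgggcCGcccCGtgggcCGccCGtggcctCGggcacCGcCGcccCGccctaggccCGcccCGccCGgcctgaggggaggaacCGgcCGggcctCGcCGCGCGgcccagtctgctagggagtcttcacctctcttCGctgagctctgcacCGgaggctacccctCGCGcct
Vnn3 had its few pairs mainly at the end of the window, past the gene start, while in Pank3 they are spread over most of it. The share of G and C was 43.0% in Vnn3, 50.7% in Pank1 and 79.7% in Pank3, against a median of 51.7% over all promoters. Pank1, at 8 pairs, was close to the median, and Vnn3 alone lay below it.

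PPAR alpha binds repeats of the letters AGGTCA. On both strands, AGGTCANAGGTCA was found in 0 of the 6 promoters, against 0.0538% of all promoters. AGGTCA was found once, in Ppcs, against 16.2% of all promoters. The core letters of hypoxia response elements were also searched on both strands. ACGTG was found in Pank2 (19.3% of all promoters held it). GCGTG was found in Pank1, Pank2 and, 3 times, in Ppcs (29.7% of all promoters). Where no match was found, these letters are not in this window, and nothing more can be read from that.

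Genes around coenzyme A, in lists chosen by function, were measured in rat only. All 4 transporters of pantothenate or coenzyme A averaged at least 10 FPKM, with a median of 12.7. Slc25a42, which carries coenzyme A into mitochondria, was the highest at 35.4 ± 2.05 FPKM and Slc5a6, the cellular uptake route of pantothenate, the lowest at 10.3 ± 0.906 (SD, n = 3 each). The 3 Nudix hydrolases that degrade coenzyme A had a median of 11.9, from Nudt7, a peroxisomal enzyme, at 4.38 ± 0.613 to Nudt8 at 17.5 ± 2.60 (SD, n = 3 each). These lists had a higher median than the 9 members, which stood at 7.26.

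Products of the vanin reaction feed other routes. Of 6 measured genes of cysteamine and taurine metabolism, Cdo1 was the highest at 668.8 ± 51.4 FPKM (SD, n = 3). It oxidizes cysteine, not cysteamine, on the way to taurine. Slc6a6, the taurine transporter, was the lowest at 1.11 ± 0.498 (SD, n = 3). Ado, which oxidizes cysteamine itself, stood at 2.65 ± 0.439 (SD, n = 3). The vanins belong to the nitrilase superfamily, and their 4 measured relatives had a median of 128.0 FPKM, from Btd (biotinidase) at 21.1 ± 1.16 to Upb1, of pyrimidine breakdown, at 326.6 ± 121.6 (SD, n = 3 each). Each of these relatives averaged more than Vnn3 in rat, at 17.5 ± 3.14, and Vnn1, at 6.79 ± 1.73 (SD, n = 3 each), although the lowest Btd value, 20.2, was within the range of Vnn3.

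The users of the product were measured too. On a list meant for genes that place or carry the phosphopantetheine arm, 3 had a rat row, with a median of 17.2 FPKM. This count and median include Acsf2, an acyl-CoA synthetase outside that class, which was the lowest at 5.47 ± 1.08. Aldh1l2, a mitochondrial folate enzyme, was the highest at 82.9 ± 12.2 (SD, n = 3 each). The 11 measured acyl-CoA thioesterases, which release coenzyme A from fatty acids, had a median of 7.17 FPKM. Acot12 was the highest at 112.3 ± 28.3 and Acot6 the lowest at 0.0460 ± 0.00152 (SD, n = 3 each). Acot1 to Acot6 are close copies that can split reads, so their levels are uncertain.

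Of 11 measured genes on the list of PPAR alpha and its known targets, 9 averaged at least 10 FPKM, with a median of 71.5. Ppargc1a, a coactivator, was the lowest at 1.10 ± 0.236 (SD, n = 3). Rat 2 was the highest library for 7 of the 11, against 49.0% of all rows. Ppara itself, named after its values were seen, had 34.1, 44.6 and 27.6 FPKM in rat 1, 2 and 3. Pank1 and Pank2 had the same order of rats, as did 19.9% of the 9994 rows, and the order of Vnn1 differed, with rat 3 the highest.

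**Figure D4:**
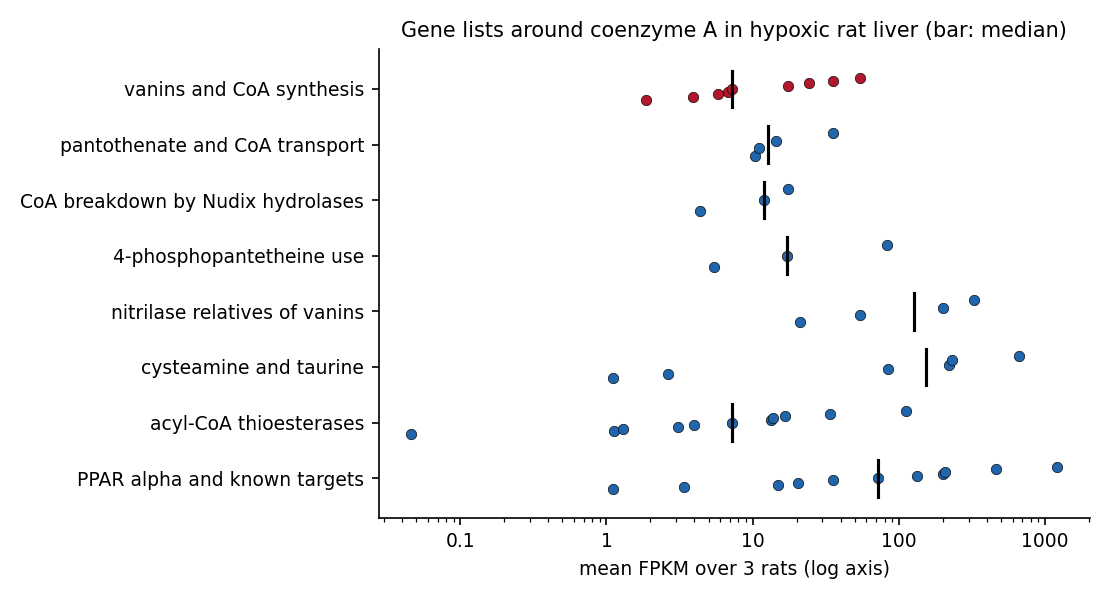
Mean FPKM over 3 rats (log axis) of the 9 members and of the genes on 7 lists around coenzyme A, 1 point per gene, with a bar at each list's median. The members run from 1.87 for Ppcdc to 54.2 for Ppcs, and their median of 7.26 is near that of the thioesterases (7.17) and below that of the other lists.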

How the data were processed

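Per the file headers, each library is a gene table in the layout of Cufflinks, with a locus, an FPKM value, its confidence bounds and a status; the authors deposited FPKM values and no counts. Cufflinks 2.1.1, TopHat2 2.0.9, Picard 1.137 and Bowtie2 2.1.0 were used, per the submitters' processing notes. The genome build and annotation are not given in the sources.

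Members were matched by symbol and used as deposited within a species. Values with the status HIDATA, which marks a locus with too many fragments, were treated as missing; this touched albumin only. Between species, 388 symbols were shared, rows of 1 symbol being summed. Libraries were divided by their median ratio over the 215 shared symbols above 0 in all libraries and at 1 FPKM or more in at least 3, with factors of 0.820 to 0.913 in NMR and 1.08 to 1.23 in rat. Symbols at a scaled FPKM of 1 or more in at least 3 libraries were log2-transformed with a pseudocount of 1 and tested with limma 3.58.1 (R 4.3.3). The fit had an intensity trend and no replicate block, and p-values were adjusted by Benjamini-Hochberg. On 20 simulated sets this step recovered 99.0% of the genes changed by a log2 difference of 2, with a median of 242 genes tested. Each set had 60 changed genes, a smaller share than the 73.7% called in the data. The recovery therefore does not vouch for the scaling where most symbols differ. Tables, promoters and plots were made with Python 3.11.15, pandas 2.3.3 and matplotlib 3.10.9. Since the labels name no animals, the p-values reflect the spread among libraries, part of which may be technical.

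The members, gene lists, span limits and motifs were chosen with earlier results of these data known. Named genes are all members, plus the highest and lowest gene of each list above 0, the row neighbours of the vanins, the 3 symbols nearest to each vanin in level, and a few more named for their role. Some genes that this rule takes are not reported here. Of the listed genes, those with no row in these tables were not analysed here.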

Additional observations from a re-analysis of the deposited data

How the results depend on the processing

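VNN3 was higher in NMR and VNN1 lower in NMR under every alternative run, as a description of the contrast with which they were chosen. The log2 difference of VNN3 was 3.11 with FPKM as deposited, 3.30 with no minimum of 1 FPKM in the scaling (chosen after seeing the data), 4.03 with quantile normalization and 4.37 with each library scaled to 1000000 over the shared symbols, which gave -0.54 for VNN1. Leaving out each library gave 3.41 to 3.57 for VNN3 and -1.18 to -0.89 for VNN1. In all fits without 1 library, the scale factors and the filter still came from all 6 libraries. Of the shared symbols 213 were called (209 to 218 without 1 library), 30 with rows of comparable span alone, where 47 were tested. The split of 104 higher in NMR to 109 higher in rat became 143 to 95 with libraries scaled to 1000000, moving the median log2 difference to 0.82. It became 19 to 11 with comparable spans alone. With the replicate number as a block, 213 symbols were called, and the differences of VNN1 and VNN3 stayed at -1.04 and 3.50. Same-numbered libraries shared only a number: the correlations of their deviations were -0.0499, -0.0874 and -0.0512, and no library correlated best with its own number.

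Rescaling each table to 1000000 multiplied the levels without changing the order of the members. In rat the means became 102.2 for Ppcs, 67.1 for Pank1, 45.7 for Coasy, 33.1 for Vnn3, 13.7 for Pank4, 12.8 for Vnn1, 10.9 for Pank3, 7.32 for Pank2 and 3.53 for Ppcdc. In NMR, whose tables hold few rows, they became 8205 for VNN3 and 103.2 for VNN1, so these are not comparable with rat. The tables give no counts, so no counting error was computed for any member beyond the confidence bounds deposited with each value. VNN3 in NMR and Ppcs in rat lay above theirs.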
